A study of Mus musculus with 11 samples.

Results

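The question was whether a high-fat, high-sugar (HFHS) diet changed disome footprints in mouse liver by another amount than it changed monosome footprints of the same genes. For each gene, the quantity was the difference of diet effects: HFHS minus chow in disomes, less HFHS minus chow in monosomes, on the log2 scale. A value of 0 means that both footprint classes responded alike. A value below 0 means that the disome level rose less, or dropped more, than the monosome level. All 11 libraries of the series entered it: 3 of chow monosomes, 3 of HFHS monosomes, 3 of chow disomes and 2 of HFHS disomes. Replicate 2 of HFHS disomes was not analysed here. All livers came from male wild-type mice. They received either chow or the HFHS diet and no other treatment. The sources used here give no age, strain or length of feeding, and do not say that each sample was a separate animal, so errors and p-values rest on the spread from sample to sample, which may be technical.

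A ribosome protects a short stretch of mRNA, of about 30 nt here, from RNase I, and sequencing these stretches shows where single ribosomes sit on coding sequences. When a ribosome stops and the one behind runs into it, the pair protects a longer fragment, of about 60 nt, which is read as a disome. Persistent collisions are recognised by ribosome-bound factors, among them the kinase ZAK named in the title of the series, which signals to stress kinases, and other factors that split the stalled pair and degrade the unfinished protein. Disome footprints also arise at regular pauses of translation, such as at stop codons, so a gene has a basal disome level that follows its monosome level. Setting the disome response against the monosome response therefore removes the part of a disome change that is proportional to the monosome change. Whether disomes scale in proportion to the ribosomes on an mRNA was not tested.

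The counts carry Ensembl gene identifiers without gene names, and 0 identifiers could be matched to the RefSeq table used here. Functional gene classes and liver cell type markers were therefore not analysed here, and the tissue label could not be set against its markers. Genes were pooled instead by abundance, and by a run of neighbouring identifiers. Disome libraries held 147212 to 279331 counts and monosome libraries 795145 to 1612324. Counts of single genes were low in disomes, and the error of pooled and abundant genes came from the spread between libraries as well. In both classes the chow library of barcode AGCTA had the fewest counts and stood apart from the other chow libraries. Its monosome library held 30 genes at over 20 CPM whose level exceeded every other monosome library by over 8 times. All 30 genes were tested here. Their diet effects had a median of -5.95 in monosomes and -6.57 in disomes, and their differences ranged from -4.25 to 3.03 with a median SE of 10.4, so no size can be read from them. Values without the AGCTA libraries are given beside the run and the genes named from it.

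Across the 7236 genes tested, in the fit without a barcode block, none passed the test for a disome response to diet that differed from its monosome response. edgeR's quasi-likelihood test called 0 genes (0% of genes tested, smallest adjusted p = 0.763), with 358 genes (4.95%) at an unadjusted p below 0.05. With DESeq2 the number called was likewise 0, and 196 genes lay below 0.05 before adjustment. Values lay evenly around 0, with 3680 genes above it, 3556 below it (49.1%) and a median of 0.01 (log2). The central 50% of genes lay between -0.39 and 0.37, and the central 90% between -1.39 and 1.17. The median SE of a single gene was 0.65, of the same order as this width. In liver tissue a change in the number of cells of a type and a change in RNA per cell cannot be told apart, in either footprint class. Of the genes tested, 3647 had fewer than 30 disome counts over the 5 disome libraries.

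**Figure D1:**
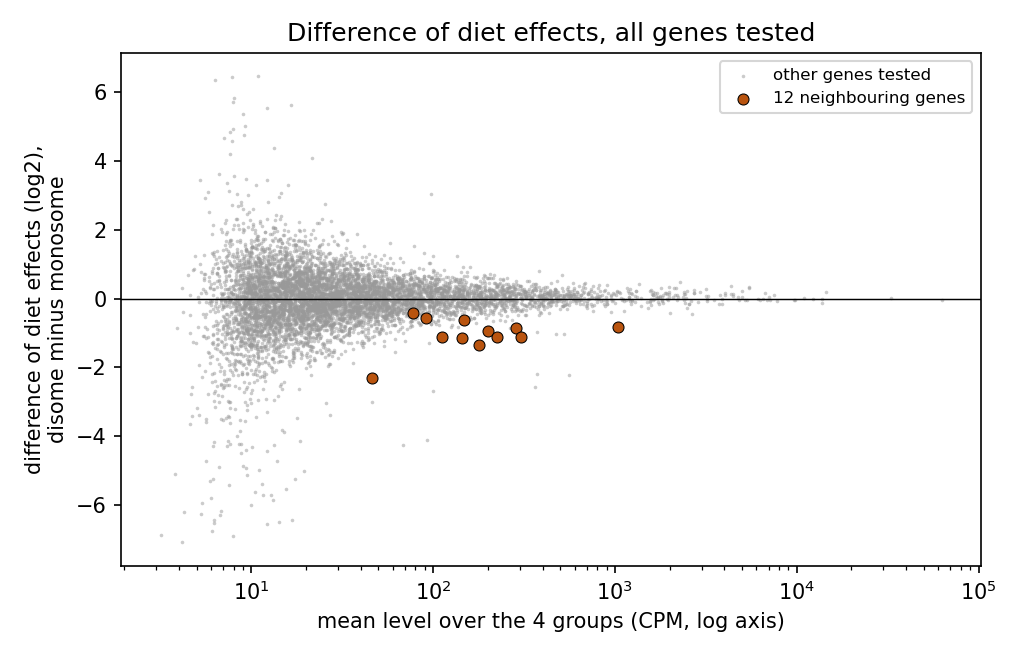
Difference of diet effects (log2, disome minus monosome) of each of the 7236 genes tested, against its mean level over the 4 groups in CPM (edgeR's scaled counts) on a log axis; the 12 genes of the identifier run are in orange. The cloud is centred near 0 and narrows to the right, and all 12 orange points lie below 0, between -2.30 and -0.42.

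A test that calls no gene does not show that the responses were equal, so the size of difference that each gene's error allows was read from its 95% interval. For 1437 genes (19.9% of those tested) the interval lay wholly between -1 and 1, so a 2-fold difference between the responses lay outside it. Each interval holds at 95% for its gene alone, and relative to the scaling of the libraries. Most of these 1437 genes lay among the 2000 most abundant genes. Among the 10 most abundant genes, all 10 had such an interval, and their differences ran from -0.12 to 0.20. Among ranks 11 to 100 of abundance, 78 of 90 genes did. The numbers were 371 of 400 for ranks 101 to 500 and 423 of 500 for ranks 501 to 1000. They dropped to 451 of 1000 for ranks 1001 to 2000, to 101 of 3000 for ranks 2001 to 5000, and to 3 of the 2236 tested genes further down. The median SE of a gene grew from 0.14 in the first of these classes to 1.01 in the last.

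Summing the counts of each abundance class gave values with small errors, and in each class the 95% interval of the difference of diet effects held 0. The 10 most abundant genes held 20.96% ± 0.82 of the counts of chow monosomes and 21.9% ± 0.42 of HFHS monosomes (SD, n = 3 each). In disomes they held less, 15.2% ± 0.014 in chow (n = 3) and 15.7% ± 0.70 in HFHS (n = 2). Their summed level was 0.08 ± 0.034 (log2, SE) higher on HFHS in monosomes and 0.11 ± 0.038 higher in disomes. The difference of these effects was 0.03 ± 0.051, with a 95% interval from -0.09 to 0.15. The most abundant genes thus gave a smaller share of disomes than of monosomes, and the diet left that ratio within its error.

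The next class, ranks 11 to 100, had a difference of 0.07 ± 0.097, the highest of the 7 abundance classes. Its share was 25.8% ± 1.1 of chow monosome counts and 29.1% ± 1.4 of chow disome counts (n = 3 each). On HFHS the shares were 25.4% ± 0.31 (n = 3) and 29.2% ± 1.0 (n = 2). The pooled difference was 0.03 ± 0.10 for ranks 101 to 500, 0.06 ± 0.040 for ranks 501 to 1000 and 0.05 ± 0.038 for ranks 1001 to 2000. It was 0.03 ± 0.041 for ranks 2001 to 5000 and 0.0068 ± 0.079 for all genes further down. The 95% intervals of these 7 classes all held 0 and lay between -0.22 and 0.30. Opposite responses of genes can cancel within a class, and the classes share the total of each library. Small pooled values therefore do not show that the genes of a class responded alike. A change of disomes common to all genes is removed by the scaling of libraries and could not be seen in any of these values. Scaling by library totals alone instead of TMM shifted the median gene by -0.05, so the sign of values this small has no meaning.

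**Figure D2:**
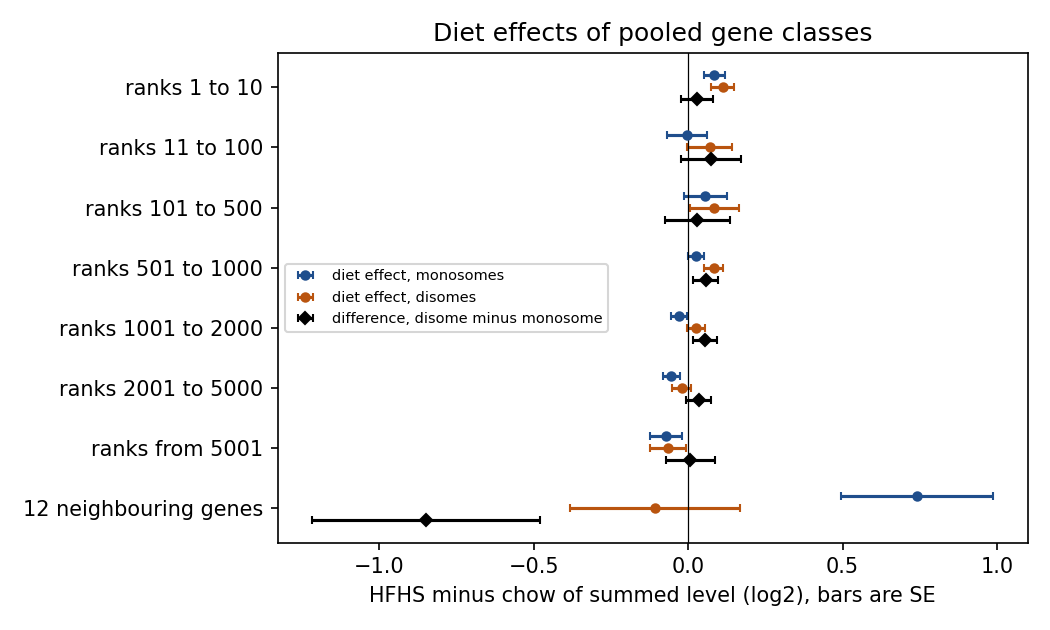
Diet effect (HFHS minus chow of the summed level, log2) of each abundance class and of the identifier run, in monosomes (blue), in disomes (orange), and the difference of both (black diamonds); bars are SE from the spread between libraries. The 7 abundance classes lie near 0 on all 3 measures, while the run has a monosome effect of 0.74, a disome effect of -0.11 and a difference of -0.85.

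The gene with the deepest counts had the narrowest interval of the genes named here. ENSMUSG00000029368 had the highest mean share of counts over all libraries. Its level was 93101 ± 5012 CPM in chow monosomes and 96419 ± 3353 in HFHS monosomes (SD, n = 3 each). Its disome level was 30482 ± 1704 CPM in chow (n = 3) and 30641 ± 1303 in HFHS (n = 2). The groups of the diets overlapped in both footprint classes. The difference of diet effects was -0.04 ± 0.098 (log2, SE), with a 95% interval from -0.24 to 0.15.

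Of the genes called for diet in both footprint classes, the one with the largest rise in monosomes rose by a similar amount in disomes. ENSMUSG00000032080 was at 225, 280 and 221 CPM in the chow monosome libraries and at 2760, 4197 and 1960 CPM in the HFHS monosome libraries. Its disome libraries had 83.4, 47.9 and 45.3 CPM in chow and 624 and 439 CPM in HFHS. Every HFHS library lay above every chow library in both classes. The diet effect in the fit of all 11 libraries was 3.62 ± 0.33 in monosomes (edgeR adjusted p = 0.000477) and 3.23 ± 0.39 in disomes (adjusted p = 0.00882). The difference was -0.38 ± 0.51 (adjusted p = 1.0), with a 95% interval from -1.55 to 0.78. It ran from -0.66 to -0.08 when single libraries were left out, and was -0.22 without both AGCTA libraries. Its chow disome counts were 13, 12 and 14, which limits this comparison.

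A run of 12 genes with neighbouring identifiers was pooled as a further class. It lies between the identifiers ENSMUSG00000064341 and ENSMUSG00000064370. All rows of the table in that range belong to it, and all 12 were tested. What the genes of the run encode was not established here. Whether the account of ribosome collisions given above applies to them was not tested. The run was picked in an earlier look at these data because its differences were low, so its values are a description and carry no test of their own. It took 0.327% of all monosome counts and 0.252% of all disome counts. Its monosome footprints were higher on HFHS, and its disome footprints lay within the range of chow.

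The summed level of the run in monosomes was 2433 (ATCGT), 2936 (AGCTA) and 2218 CPM (CGTAA) in chow. In HFHS monosomes it was 4927 (CTAGA), 3903 (GATCA) and 3850 CPM (GCATA). All HFHS monosome libraries lay above all chow ones. In chow disomes the level was 3384 (ATCGT), 1732 (AGCTA) and 2294 CPM (CGTAA). In HFHS disomes it was 2235 (CTAGA) and 2180 CPM (GCATA). Both HFHS disome libraries lay inside the range of the chow disome libraries, of which ATCGT was highest and AGCTA lowest. The disome counts behind these levels were 847, 270 and 709 in chow and 544 and 521 in HFHS.

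**Figure D3:**
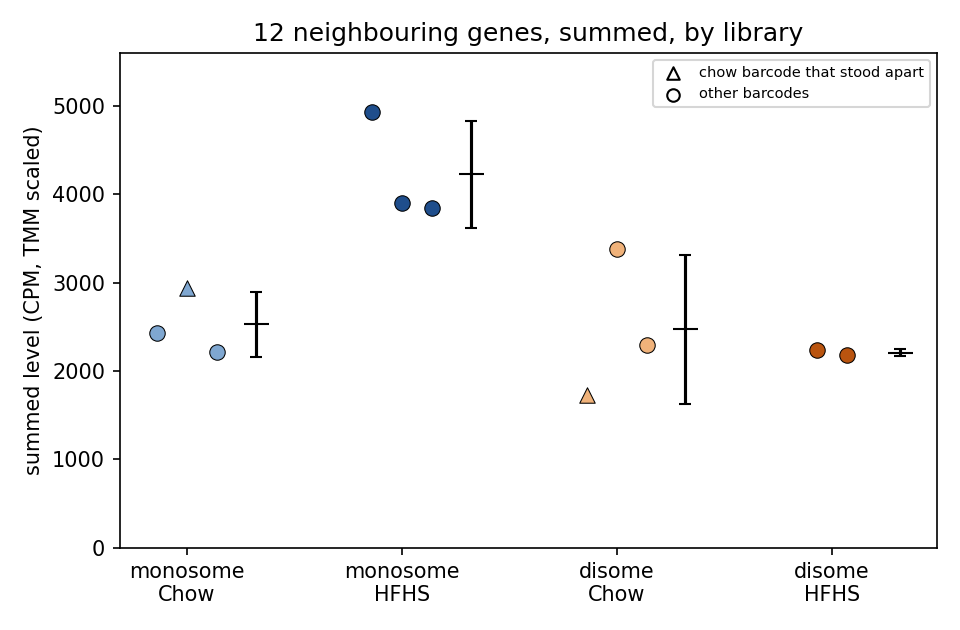
Summed level of the 12 genes of the identifier run in each library (CPM after TMM scaling); each point is a library, triangles mark the chow barcode AGCTA, and bars beside the points are mean ± SD of the group (n = 3, 3, 3 and 2). HFHS monosome libraries, between 3850 and 4927 CPM, lie above chow ones, while HFHS disome libraries, at 2235 and 2180 CPM, lie within the range of chow disomes.

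On the log2 scale the run was 0.74 ± 0.25 (SE) higher on HFHS in monosomes and -0.11 ± 0.28 in disomes. The difference of diet effects was -0.85 ± 0.37, with a 95% interval from -1.72 to 0.02, which just holds 0. Most of this error came from the spread of the 3 chow disome libraries, whose level was 2470 ± 840 CPM against 2208 ± 38.6 CPM in the 2 HFHS disome libraries. The pooled difference was -0.59 without the chow disome library ATCGT, and -1.19 without both AGCTA libraries. It was negative under every setting tried, including the removal of each library and the removal of the most abundant gene of the run, which gave -0.88. The settings share libraries and a run picked for low differences, so the constant sign is no separate support.

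The 12 genes of the run had diet effects over a wider range in disomes, with a larger SE for each gene, than in monosomes. Their diet effect in monosomes was above 0 for all 12 and ran from 0.45 to 0.85, with a median of 0.77, against a median of -0.03 over all genes tested. In monosomes 5 of the 12 were called higher, where 1.92% of all genes tested were. Picking the run for low differences also favours high monosome effects. For 7 of the 12, every HFHS monosome library lay above every chow one, as for 10.3% of all genes tested. Their diet effect in disomes ran from -1.56 to 0.18, with a median of -0.20, against -0.01 over all genes. None of the 12 was called in disomes (smallest adjusted p = 0.337 in edgeR, and 1 of the 12 at an unadjusted p below 0.05), where 0.995% of all genes tested were called. For 1 of the 12, both HFHS disome libraries lay below every chow one, which is near the share of all genes tested (10.7%).

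The difference of diet effects was below 0 for all 12 genes of the run, from -2.30 to -0.42 with a median of -1.02, against 0.01 over all genes tested. At an unadjusted p below 0.05 there were 9 of the 12, all lower, against 2.58% of all genes tested, and none passed after adjustment over all genes tested (smallest adjusted p = 0.763). The run was picked for its low differences, which favours such a share, so this is no separate result. Its 12 genes were measured in the same libraries and are not separate observations. With the sample barcode as a block in the same fit, 7 genes of the run were called lower. No other gene was called in either direction, so these calls depend on the block. With 1 term per barcode, few libraries are left to estimate the spread, so the p-values of these calls may be too small. Barcode GATCA has no disome library, so in that fit its monosome library adds nothing to the difference. The 7 are 0.0967% of all genes tested. The ratio of the disome to the monosome library of one barcode, taken on the summed counts of the run, was -0.90 ± 0.48 (log2, SE) in HFHS relative to chow, which is within 2 SE of 0. The median was -0.65, with 11 of 12 below 0, without the chow disome library ATCGT, and -1.23 without both AGCTA libraries. The lowest value, -2.30 ± 0.86, belonged to the gene with the fewest disome counts of the run, 38 over the 5 libraries.

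**Figure D4:**
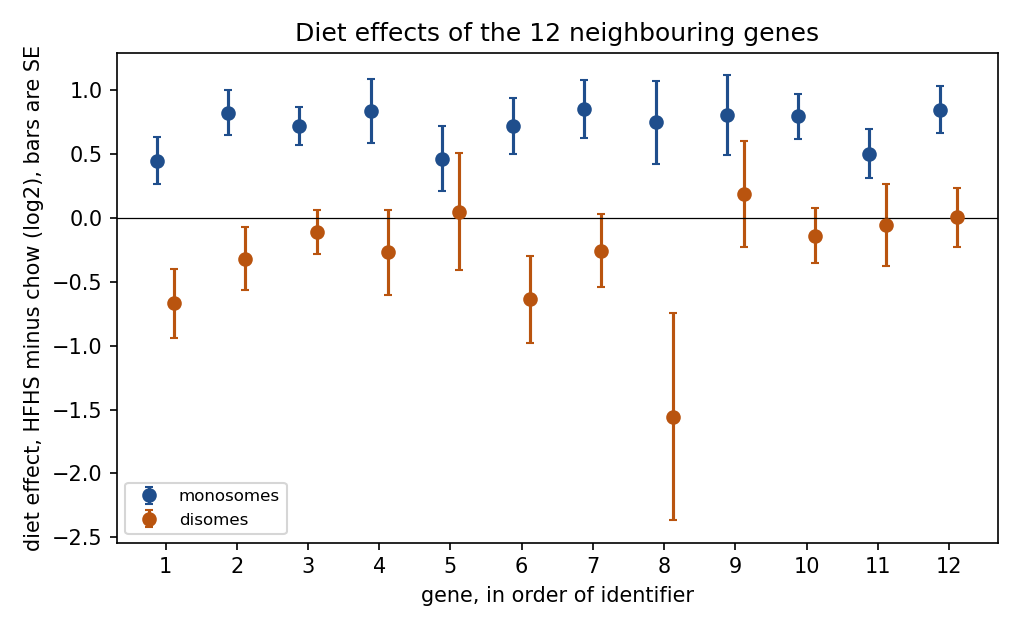
Diet effect (HFHS minus chow, log2) of each of the 12 genes of the identifier run in monosomes (blue) and disomes (orange), in order of identifier; bars are SE from the fit of all 11 libraries. The 12 monosome values lie between 0.45 and 0.85, and the disome values between -1.56 and 0.18, each below the monosome value of the same gene.

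The genes with the smallest p on each side were then described, none of which passed the threshold in the fit without a barcode block. Those considered had at least 30 disome counts over the 5 libraries. Choosing by the p of the difference favours genes with monosome and disome effects of opposite sign, so these signs are no separate result. Of the 10 lowest in p with a negative difference, 5 belonged to the run, and 9 had a monosome effect above 0 while all 10 had a disome effect below 0. ENSMUSG00000064345, a gene of the run, came first. It had 110, 133 and 116 CPM in chow monosomes and 245, 195 and 195 CPM in HFHS monosomes, without overlap. In disomes it had 160 (ATCGT), 83.4 (AGCTA) and 155 CPM (CGTAA) in chow and 111 and 109 CPM in HFHS, so that the HFHS libraries lay between the chow libraries. Its monosome footprints rose by 0.82 ± 0.17 (log2, SE; edgeR adjusted p = 0.00129). The difference was -1.14 ± 0.30 (adjusted p = 0.763). It was -1.42 without both AGCTA libraries (adjusted p = 0.137) and -1.24 with the barcode block (adjusted p = 0.0159).

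ENSMUSG00000064351, the second of these genes and the most abundant of the run, had 646 disome counts in chow and 390 in HFHS, and so the firmest value of the run. Its level was 945 ± 127 CPM in chow monosomes and 1553 ± 103 in HFHS monosomes (SD, n = 3 each), without overlap. In disomes it was 1139 (ATCGT), 616 (AGCTA) and 857 CPM (CGTAA) in chow and 875 (CTAGA) and 741 CPM (GCATA) in HFHS, with the groups overlapping. Its monosome footprints rose by 0.72 ± 0.15 (adjusted p = 0.00161), and the disome effect was -0.11 ± 0.17 (adjusted p = 0.904). The difference was -0.83 ± 0.23 (adjusted p = 0.763), and ran from -1.02 to -0.59 with single libraries left out. It was -1.13 without both AGCTA libraries (adjusted p = 0.0698) and -0.89 with the barcode block (adjusted p = 9.43e-05). The block fit gave it an SE of 0.16, against 0.48 for the same-barcode ratio of the summed run. That p-value may therefore be too small.

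On the positive side, the 10 genes with the smallest p had disome effects above 0 in all 10 and monosome effects below 0 in 8. Their differences ran from 0.92 to 1.87, on 37 to 86 disome counts each. The choice by p again favours such opposite signs. ENSMUSG00000007836 came first. It had 114, 142 and 138 CPM in chow monosomes and 98.4, 102 and 102 CPM in HFHS monosomes, all below the chow libraries. Its disome level was 36.0 (ATCGT), 19.2 (AGCTA) and 19.4 CPM (CGTAA) in chow and 61.6 and 50.2 CPM in HFHS, both above the chow libraries. The gene was chosen for its small p, which favours such separation. The counts behind the disome levels were 9, 3 and 6 in chow and 15 and 12 in HFHS. The difference was 1.52 ± 0.43 (edgeR adjusted p = 0.763).

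ENSMUSG00000030530 had the same pattern on fewer counts. Its monosome level was 90.6 ± 11.2 CPM in chow and 71.0 ± 8.02 in HFHS (SD, n = 3 each). Its disome counts were 5, 5 and 4 in chow and 10 and 13 in HFHS, or 21.7 ± 9.67 CPM (n = 3) against 47.7 ± 9.42 CPM (n = 2). The diets did not overlap in either class, in a gene chosen for its small p. The difference was 1.61 ± 0.48 (edgeR adjusted p = 0.763), and neither of its diet effects was called (adjusted p = 0.435 in monosomes and 0.228 in disomes).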

How the data were processed

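Footprints of liver monosomes and disomes were sequenced, and the authors deposited raw counts per gene for 11 libraries, as whole numbers that were not normalized. Per the submitters' processing notes, cutadapt 3.5 and Bowtie2 were used. How reads were counted, with which build, annotation, strand setting and use of the molecular identifiers, is not stated in the sources used here. Column names give footprint class, diet and sample barcode, but no replicate number. With edgeR 4.0.16 in R 4.3.3, 4 groups were fitted in 1 model: filterByExpr with a minimum count of 10, TMM, and robust quasi-likelihood testing (two-sided F-test, Benjamini-Hochberg adjusted over all genes tested, threshold 0.05). The SE was taken as the size of the effect divided by the square root of F. CPM is edgeR's scaled count, relative to the TMM-scaled total of the genes tested. Pooled values are log2 of summed CPM, with SE from the pooled variance within groups (7 residual degrees of freedom) and no test. The 95% intervals use the t distribution.

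The named genes are those of smallest p in each direction with at least 30 disome counts. The rule takes 10 in each direction, and 2 are printed because they are unnamed, so its exclusion of predicted genes and pseudogenes could not be applied. ENSMUSG00000029368 and ENSMUSG00000032080 were chosen after their values were seen. The comparison, the gene run and the lists were chosen with earlier results of these data known. The 37 functional lists and 9 marker lists that had been drawn up need gene names and were not analysed here, and abundance classes took their place. Alternatives were DESeq2 1.42.0, other scalings and filters, each library left out, and the barcode as a block. Precision is limited by the disome depth, at which 3 counts in a library are 9.71 to 19.2 CPM, against 2.00 to 4.04 CPM in monosomes. These floors cover counting error only.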

Additional observations from a re-analysis of the deposited data

How the results depend on the processing

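No gene was called higher or lower (0 in each direction) with DESeq2, other scalings, no filter, a minimum count of 50, no robust estimation, without both AGCTA libraries, or with any single library left out (range 0 to 0). The exception was the fit with the sample barcode as a replicate block, which called 7 genes lower (0.0967% of those tested) and 0 higher. All 7 belonged to the identifier run, and the cause was not tested. ENSMUSG00000064345 had -1.24 (adjusted p = 0.0159) and ENSMUSG00000064351 had -0.89 (adjusted p = 9.43e-05) in it. Over genes above 50 CPM, libraries of one barcode deviated from their group means with r from 0.087 to 0.86 over 5 pairs. Without the genes high in AGCTA all 5 pairs lay between 0.17 and 0.30, while chow libraries of unlike barcodes had r from -0.19 to -0.015. The size of r thus depended on those genes, while its sign for libraries of one barcode did not. Deviations within a group sum to 0, which by itself lowers r between unlike barcodes. No label links a barcode to an animal, so both fits are given. The ratio of libraries of one barcode gave -0.90 ± 0.48 (SE) for the summed run. In the block fit the SE was smaller, 0.29 for ENSMUSG00000064345 and 0.16 for ENSMUSG00000064351, so their p-values may be too small. Mitochondrially encoded genes could not be picked out without gene names, so a TMM without them was not set up as such. TMM without the run was used in place of that scaling. It was chosen after the data were seen, as were the removals of all libraries of each other barcode found in both classes. Whether the run holds mitochondrially encoded genes was not established here.

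The pooled difference of the run was -1.08 to -0.59 with single libraries left out and -1.19 without both AGCTA libraries. It was -0.57 without all ATCGT libraries. Its sign was negative in every setting, which a run picked for low differences favours. Abundance classes moved beyond the spread within groups as follows. With library totals the difference was -0.014 for ranks 1 to 10, 0.014 for ranks 501 to 1000, 0.013 for ranks 1001 to 2000 and -0.0083 for ranks 2001 to 5000. As the median of members it was -0.034 for ranks 1 to 10 and -0.071 for genes from rank 5001. Ranks 1001 to 2000 had 0.023 without both AGCTA libraries and 0.088 without ATCGT, and ranks 501 to 1000 had 0.091 without CTAGA. With single libraries left out, the ranges were -0.0011 to 0.06, 0.01 to 0.14, -0.04 to 0.08, 0.03 to 0.08, 0.03 to 0.08, 0.0092 to 0.06 and -0.03 to 0.07, from the most to the least abundant class. Where 1 HFHS disome library was left, it was assumed to vary like the other groups.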
